A study of Homo sapiens with 12 samples.

Results

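The BTG/TOB and GADD45 genes are a pair of small families of growth-restraining genes. They were followed here by symbol: BTG1, BTG2, BTG3, TOB1 and TOB2 of the first family, and GADD45A, GADD45B and GADD45G of the second. Of these 8 genes, 7 had a probe set annotated to them alone, 18 probe sets in all, and BTG2 was not analysed here. For each gene the probe set with the highest mean over the 12 arrays gave the value, and the others served as a check. Of 19775 genes with such a probe set, 14280 were tested, namely those at or above the array median in 2 or more arrays, and all 7 were among them.

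RNA came from the human kidney cancer lines RCC4 and UMRC2, in which the submitters describe endogenous FoxO1 and FoxO3 as low. Each line stably carried FoxO1(TA)-ERT2, FoxO3(TA)-ERT2 or an empty vector (EV), which is described as the ERT2 moiety alone. ERT2 is a modified estrogen receptor part that lets 4-hydroxytamoxifen (4OHT) bring its fusion partner into the nucleus, and TA marks the change of 3 AKT phosphorylation sites to alanine. The tested arms were FoxO1 and FoxO3 cells given 100 nM 4OHT for 12 h, each set against ethanol vehicle in the same cells and against EV cells treated alike. All 6 engineered lines grew in DMEM with 10% FBS under puromycin, and whether any is a single clone is not given in the sources used here. Each of the 12 combinations has 1 array, so a construct has n = 2 cell lines and no repeat culture. The p-value of a construct comparison therefore rests on how unevenly the lines show it, array noise included. Its error is also drawn towards that of other genes of like level. In comparisons between the lines, constructs or isoforms stand as the replicates instead.

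BTG and TOB proteins bind the CNOT7 and CNOT8 deadenylases of the CCR4-NOT complex and so speed the shortening of poly(A) tails on messenger RNA. Their forced expression slows entry into the cell cycle in many cells. GADD45 proteins are small, acidic stress proteins that bind PCNA and the kinase pair CDK1 and cyclin B1, and that activate MAP3K4 upstream of p38 and JNK. FoxO factors bind DNA through a forkhead domain that prefers the core GTAAACA, and BTG1 and GADD45A have both been described as FoxO targets in other cells.

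The array levels were not common to the series. As deposited, the median intensity was 74.6 in the RCC4 FoxO3 array with 4OHT, between 121.2 and 138.7 in the other 5 RCC4 arrays, and between 71.1 and 88.7 in the 6 UMRC2 arrays. Levels below are therefore log2 intensities after quantile normalisation, with a floor at 4.17. For the members, values against EV or between the isoforms that use the RCC4 FoxO3 pair are also given without it. Other values, among them those of the partner genes named below, are given only with it. Wherever a pair is left out, its construct keeps a lone pair, so the error then holds no spread of that construct. Of the renal and epithelial markers, PAX8, KRT8, KRT18 and VIM were above the array median in all 12 arrays and PAX2 in 11. Of the markers of other cell types, CDH5 was at the floor in 12 arrays, and PTPRC and ALB were above the array median in 0. PECAM1, an endothelial marker, was above the array median of 6.62 in all 12 arrays, between 8.42 and 8.79 in RCC4 and between 8.19 and 8.57 in UMRC2, and its part in the results was not tested.

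The promoter windows of the members are shown first, because a forkhead core is part of what FoxO factors recognise. Windows of 250 bases before and 50 after the annotated start were taken from RefSeq (GRCh38.p14) for 7 of the 8 genes, with 2 windows for TOB1. The letters GTAAACA and ATAAACA were searched on both strands, and 2 genes held a match. BTG1 held GTAAACA, which 3.42% of 35116 promoter windows hold. TOB1 held ATAAACA in the window of its upstream start, a core that 4.24% of windows hold, and 7.43% hold one or the other. No window of BTG2, BTG3, TOB2, GADD45B or GADD45G held either. The 3 windows below are those of the BTG1 start (chr12:92145797-92146096, minus strand), the upstream TOB1 start (chr17:50867929-50868228, minus strand) and GADD45B (chr19:2475877-2476176, plus strand), each read along its gene with the match in capitals.
BTG1: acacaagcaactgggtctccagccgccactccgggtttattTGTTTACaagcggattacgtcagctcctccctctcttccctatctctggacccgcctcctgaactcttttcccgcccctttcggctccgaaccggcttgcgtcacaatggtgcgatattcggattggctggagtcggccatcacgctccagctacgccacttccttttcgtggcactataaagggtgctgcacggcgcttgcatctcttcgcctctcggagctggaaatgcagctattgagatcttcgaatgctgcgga
TOB1: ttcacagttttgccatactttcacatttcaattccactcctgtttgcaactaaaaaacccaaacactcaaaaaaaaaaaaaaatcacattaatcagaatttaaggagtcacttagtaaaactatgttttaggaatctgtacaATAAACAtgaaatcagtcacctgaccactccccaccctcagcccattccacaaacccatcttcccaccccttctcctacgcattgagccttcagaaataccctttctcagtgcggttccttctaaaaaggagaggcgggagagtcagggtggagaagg
GADD45B: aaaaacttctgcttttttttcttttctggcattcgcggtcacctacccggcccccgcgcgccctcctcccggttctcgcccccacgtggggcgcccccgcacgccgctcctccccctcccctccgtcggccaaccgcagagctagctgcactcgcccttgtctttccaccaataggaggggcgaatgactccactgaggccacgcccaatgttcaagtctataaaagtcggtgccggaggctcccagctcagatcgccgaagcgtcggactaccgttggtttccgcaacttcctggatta
On the BTG1 strand the match reads TGTTTAC and lies at chr12:92146049-92146055, with its nearest base 203 positions upstream of the BTG1 start. It stands between that start and the start of BTG1-DT, a divergent non-coding transcript on the other strand. Between the annotated starts of BTG1 and BTG1-DT lie 238 bases, and the last base of the match is 30 positions from the start of BTG1-DT. A match describes letters in the window and is no evidence of binding.

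BTG1, the founding member of the BTG family, was the member that responded most to either FoxO. With 4OHT its level was 12.78 in RCC4 FoxO1, 12.95 in UMRC2 FoxO1, 13.77 in RCC4 FoxO3 and 13.80 in UMRC2 FoxO3 cells. With vehicle the same lines stood at 11.01, 11.80, 10.81 and 11.77. EV cells stood at 11.07 in RCC4 and 11.50 in UMRC2 with 4OHT, and at 11.04 and 11.64 with vehicle. All 4 FoxO arrays with 4OHT were above all 8 other arrays, and the FoxO3 arrays were above the FoxO1 arrays. With 1 array per combination, an order among the other arrays within a line has no error of its own. In such bulk RNA, more cells with a transcript and more transcript per cell cannot be told apart. In FoxO3 cells with 4OHT, 0.642% of probe sets in RCC4 and 0.616% in UMRC2 were brighter than that of BTG1, against 8.27% and 4.08% with vehicle.

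**Figure D1:**
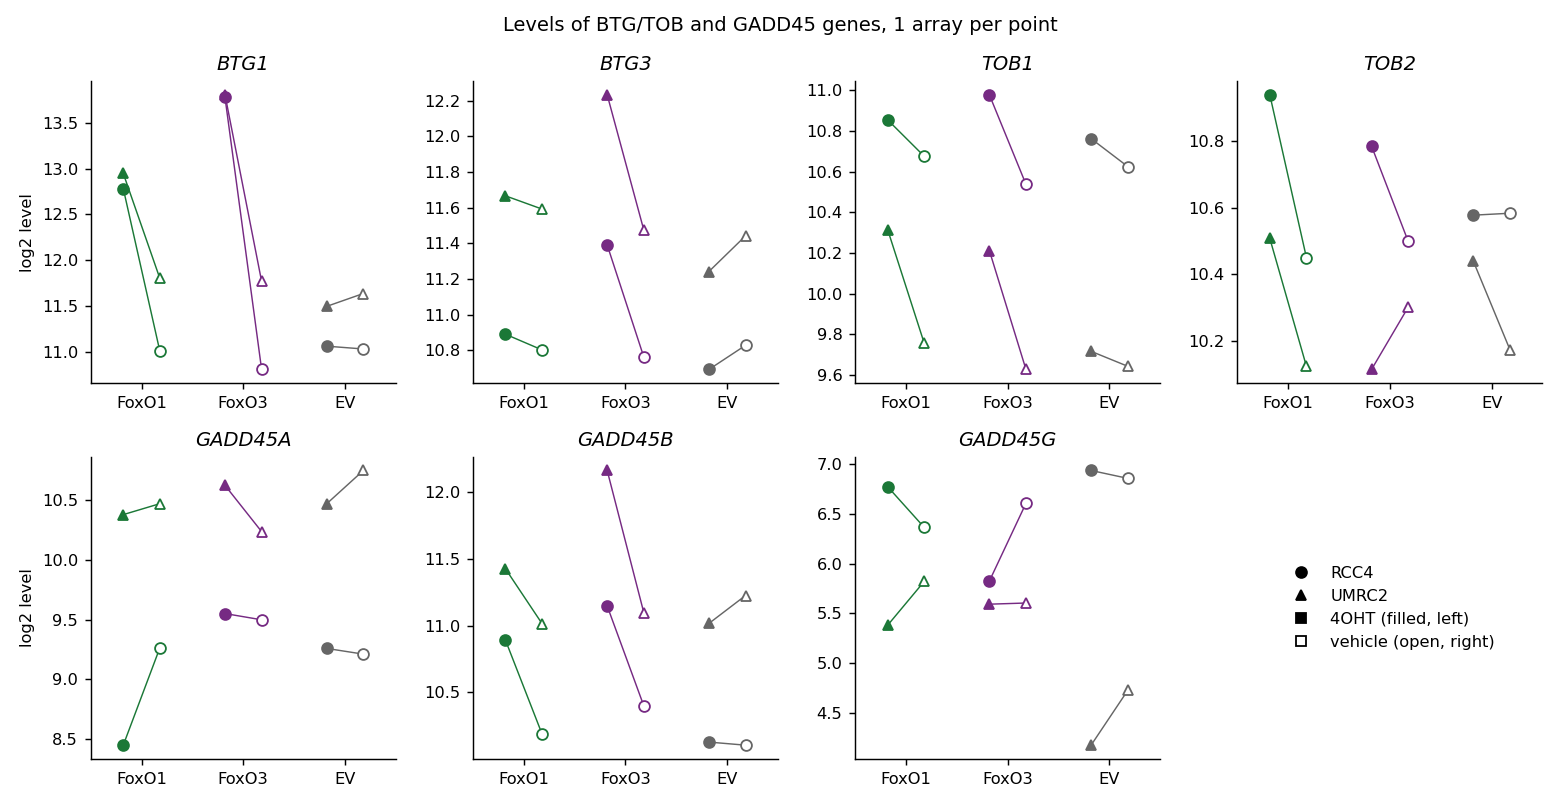
Log2 level of each gene in each of the 12 arrays, by construct, with 4OHT filled on the left and vehicle open on the right; circles are RCC4, triangles UMRC2, and lines join the arrays of one engineered line. BTG1 with 4OHT stood between 12.78 and 13.80 in FoxO cells, above every other array, while GADD45A differed more between the lines than between the treatments.

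A response here is the log2 difference between the 4OHT array and the vehicle array of one engineered line. BTG1 responses were 1.77 in RCC4 FoxO1, 1.14 in UMRC2 FoxO1, 2.96 in RCC4 FoxO3 and 2.03 in UMRC2 FoxO3, which is 3.42-fold, 2.21-fold, 7.79-fold and 4.09-fold. Those of EV cells were 0.03 in RCC4 and -0.14 in UMRC2. Averaged over the isoforms, BTG1 rose 4.09-fold relative to EV (log2 2.03 ± 0.17 SE, adjusted p = 0.00398 by limma with Benjamini-Hochberg adjustment). It ranked at position 121 of 14280 from the top of that comparison. It also rose under FoxO3 alone, by log2 2.55 ± 0.19 (5.86-fold, adjusted p = 0.00104 by limma). Under FoxO1 alone the difference was log2 1.51 ± 0.19 with adjusted p = 0.0523, which does not pass the threshold of 0.05. Without the RCC4 FoxO3 pair the values were 1.90 for both isoforms and 2.29 for FoxO3, where a lone pair stands for FoxO3. The FoxO1 test then passed at an unchanged 1.51 (adjusted p = 0.00317 by limma). Leaving out the UMRC2 FoxO3 pair instead repeats that FoxO1 test, because a lone FoxO3 pair is fitted by its own term. It is 1 test that enters the alternatives more than once. Without the UMRC2 EV pair the FoxO1 difference was 1.82. Over its 15 alternatives it was called in 4, with values from 1.21 to 1.82 and adjusted p from 0.00317 to 1.

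The response of BTG1 was larger with FoxO3 than with FoxO1. The means were 2.50 ± 0.66 with FoxO3 and 1.46 ± 0.44 with FoxO1 (SD, n = 2 lines each), a difference of log2 1.04 ± 0.19 SE (adjusted p = 0.0289 by limma). It was 1.19 within RCC4 and 0.89 within UMRC2. This call was lost without the RCC4 FoxO1 pair (1.08, adjusted p = 0.176), the RCC4 FoxO3 pair (0.77, adjusted p = 0.0729) or the UMRC2 FoxO1 pair (1.0, adjusted p = 0.116). The fusion transcript itself, read from the 5 ESR1 probe sets that stood at least log2 2 above EV in every fusion line, was 9.03-fold higher in FoxO3 than in FoxO1 vehicle cells of RCC4 and 2.07-fold higher in UMRC2. The part of that difference in the BTG1 result was not tested. In EV cells with vehicle the median level of these probe sets was 5.24 in RCC4 and 4.59 in UMRC2, below the array median of 6.62. They were chosen for standing above EV. They thus do not show an ERT2 transcript in EV cells, and whether EV cells expressed that moiety was not tested.

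The other bright BTG1 probe set moved in the same direction. It stood between 10.20 and 13.53, and its responses were 1.83, 1.30, 3.33 and 2.26 in the FoxO1 and FoxO3 lines in the order above, against -0.13 and -0.08 in EV cells. Fitted with all probe sets it gave log2 2.28 for both isoforms (adjusted p = 0.00792), 2.90 for FoxO3 (adjusted p = 0.00227) and 1.67 for FoxO1 (adjusted p = 0.115). The third BTG1 probe set was at the floor in 5 arrays and was not tested.

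**Figure D2:**
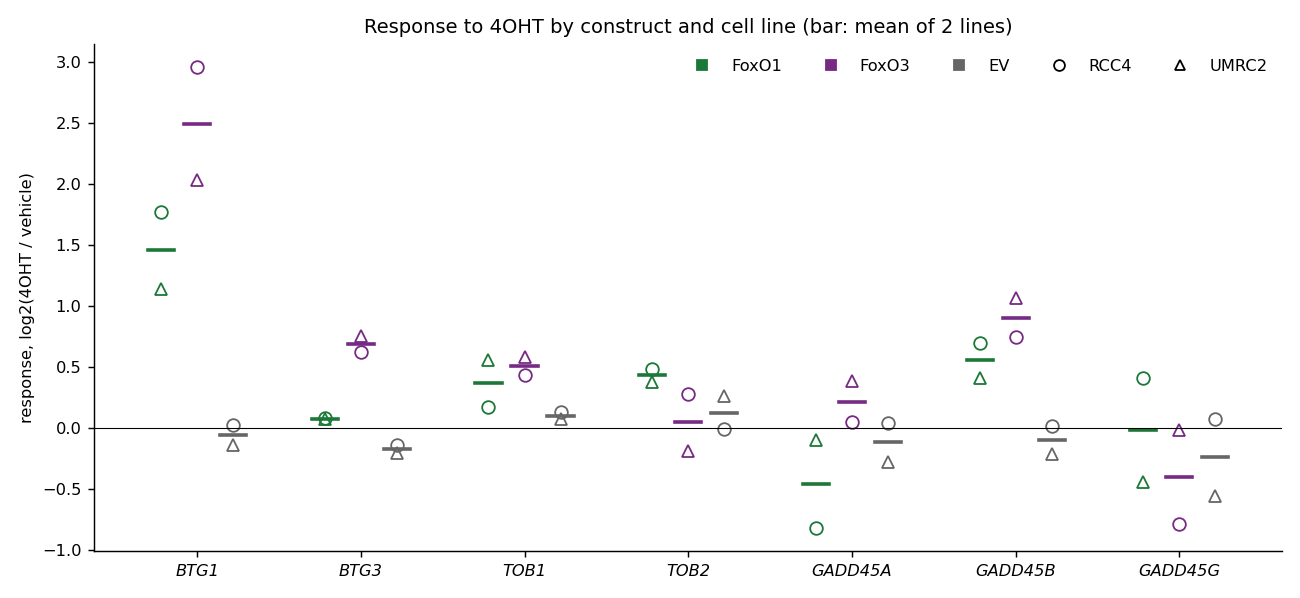
Response to 4OHT of each gene (log2 of 4OHT over vehicle) by construct, with circles for RCC4, triangles for UMRC2 and a bar at the mean of the lines. BTG1 responses ran from 1.14 to 2.96 in FoxO cells and were 0.03 and -0.14 in EV cells.

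BTG3, a family member that acts downstream of p53, rose under FoxO3. With 4OHT its level was 11.39 in RCC4 FoxO3 and 12.23 in UMRC2 FoxO3, against 10.76 and 11.47 with vehicle. In FoxO1 cells it was 10.89 in RCC4 and 11.67 in UMRC2 with 4OHT, against 10.80 and 11.59 with vehicle. In EV cells it was 10.69 and 11.24 with 4OHT, against 10.83 and 11.44 with vehicle. Hence the FoxO3 responses of 0.63 and 0.76 lay above the FoxO1 responses of 0.09 and 0.07, and these above the EV responses of -0.14 and -0.20. Relative to EV the difference was log2 0.86 ± 0.16 for FoxO3 (1.82-fold, adjusted p = 0.0114 by limma), 0.25 ± 0.16 for FoxO1 (adjusted p = 0.665) and 0.55 ± 0.14 for both (adjusted p = 0.0542). FoxO3 minus FoxO1 was 0.61 ± 0.16 (adjusted p = 0.0703), with 0.54 in RCC4 and 0.68 in UMRC2.

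The BTG3 value rests on its brightest probe set. A dimmer one, between 10.10 and 11.36, gave 0.30 for FoxO3 (adjusted p = 0.392), and the third tested one gave 0.31 (adjusted p = 0.773). The order of responses above was lost in both. In the former the UMRC2 EV response of 0.29 lay above the FoxO1 responses of 0.04 and -0.002 and the RCC4 FoxO3 response of 0.28. In the latter the UMRC2 FoxO1 response of -0.76 lay below the EV responses of -0.41 and -0.43. With the mean of all its probe sets FoxO3 gave 0.89 (adjusted p = 0.0669). That mean includes an untested probe set, at the floor in 7 arrays, which gave 2.11. The FoxO3 call was also lost without the UMRC2 EV pair (0.80). Without the RCC4 FoxO3 pair the difference was 0.95, a value that rests on a lone FoxO3 pair.

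TOB1 and TOB2, the longer members of the family that also bind poly(A) binding protein and SMAD proteins, did not pass in any comparison with EV. TOB1 was at 10.85 in RCC4 FoxO1, 10.32 in UMRC2 FoxO1, 10.98 in RCC4 FoxO3 and 10.21 in UMRC2 FoxO3 with 4OHT, against 10.68, 9.76, 10.54 and 9.63 with vehicle. EV cells stood at 10.76 and 9.72 with 4OHT, against 10.62 and 9.64 with vehicle. The 4 FoxO responses, from 0.18 to 0.58, lay above the EV responses of 0.14 and 0.07. The difference from EV was log2 0.34 ± 0.18 for both isoforms (adjusted p = 0.313), 0.26 for FoxO1 and 0.41 for FoxO3. The other TOB1 probe set gave 0.61 for both isoforms (adjusted p = 0.117). TOB2 responses were 0.49 and 0.38 with FoxO1 and 0.29 and -0.19 with FoxO3 in RCC4 and UMRC2, against -0.01 and 0.27 in EV cells, so the groups overlapped. Its differences from EV were 0.31 ± 0.23 for FoxO1 (adjusted p = 0.718) and -0.08 ± 0.23 for FoxO3 (adjusted p = 0.86).

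GADD45B, an early-response member that transforming growth factor beta and NF-kB induce in many cells, was the GADD45 gene that rose. With 4OHT its level was 10.89 in RCC4 FoxO1, 11.43 in UMRC2 FoxO1, 11.15 in RCC4 FoxO3 and 12.16 in UMRC2 FoxO3, against 10.19, 11.02, 10.40 and 11.10 with vehicle. EV cells stood at 10.13 in RCC4 and 11.02 in UMRC2 with 4OHT, against 10.11 and 11.23 with vehicle. The 4 FoxO responses, from 0.41 to 1.07, lay above the EV responses of 0.02 and -0.21. The difference from EV was log2 0.83 ± 0.18 for both isoforms (1.77-fold, adjusted p = 0.0358 by limma), 1.0 ± 0.21 for FoxO3 (2.00-fold, adjusted p = 0.0172) and 0.65 ± 0.21 for FoxO1 (adjusted p = 0.36). FoxO3 minus FoxO1 was 0.35 ± 0.21 (adjusted p = 0.394), with 0.04 in RCC4 and 0.65 in UMRC2.

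The calls for GADD45B held under fewer alternatives (5 of 17 for both isoforms) than those for BTG1 (13 of 15). That for both isoforms was lost without the RCC4 EV (0.95, adjusted p = 0.0841), RCC4 FoxO1 (0.74, adjusted p = 0.0968), UMRC2 EV (0.70, adjusted p = 0.235) or UMRC2 FoxO1 pair (0.91, adjusted p = 0.064). That for FoxO3 was lost without the UMRC2 EV (0.88, adjusted p = 0.0969) or UMRC2 FoxO3 pair (0.71, adjusted p = 0.0645). Without the RCC4 FoxO3 pair the values were 0.97 for both isoforms and 1.29 for FoxO3, where a lone pair stands for FoxO3. Of its 3 other probe sets, 2 gave 0.84 and 0.79 for FoxO3 (adjusted p = 0.0512 and 0.0619). The same 2 gave 0.42 and 0.50 for both isoforms (adjusted p = 0.277 and 0.203), and 0.004 and 0.20 for FoxO1. In the brighter of them the RCC4 FoxO1 response of -0.14 lay below the RCC4 EV response of 0.08. In the other the RCC4 FoxO1 response of 0.111 lay below the UMRC2 EV response of 0.123. The dimmest, between 7.10 and 8.39, gave -0.23 (adjusted p = 0.735).

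**Figure D3:**
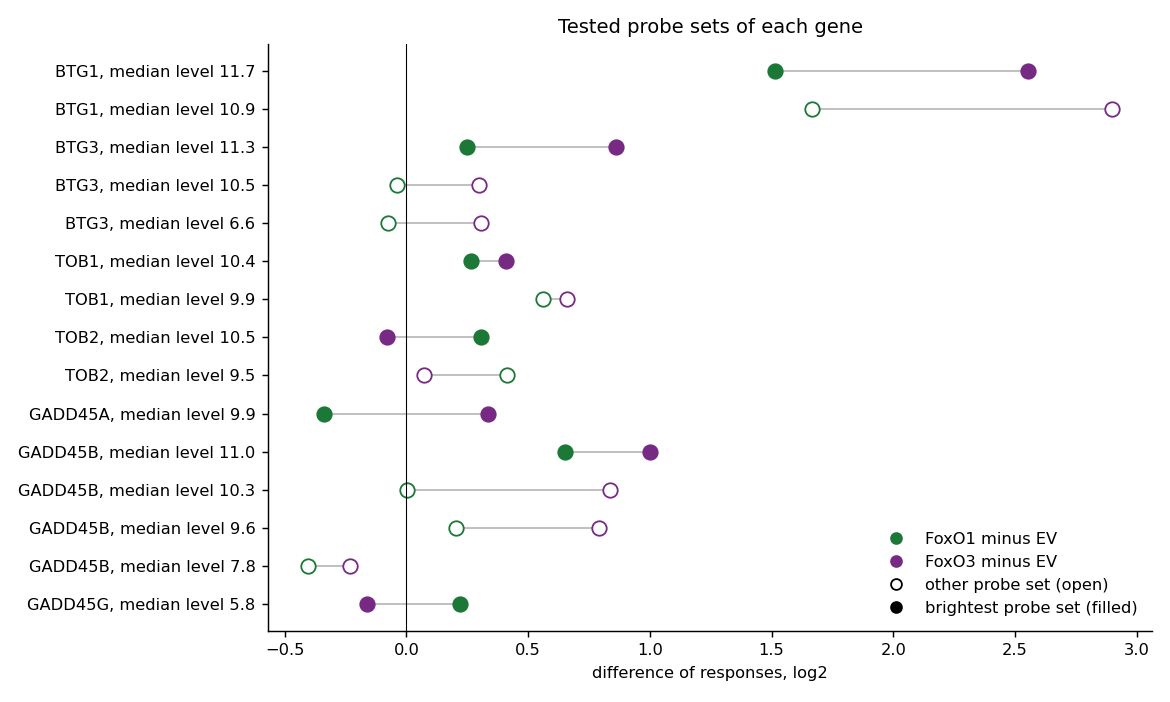
Difference of responses from EV (log2) for each tested probe set of each gene, green for FoxO1 and purple for FoxO3, filled for the brightest probe set and open for the others. Both BTG1 probe sets stood between 1.51 and 2.90, whereas those of GADD45B ran from -0.40 to 1.0.

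GADD45A, the p53-induced member, had mean differences from EV of opposite sign for the isoforms, without passing a test against EV or between them. Its level was 8.45 in RCC4 FoxO1, 10.38 in UMRC2 FoxO1, 9.55 in RCC4 FoxO3 and 10.62 in UMRC2 FoxO3 with 4OHT, against 9.27, 10.47, 9.50 and 10.24 with vehicle. EV cells stood at 9.26 and 10.47 with 4OHT, against 9.21 and 10.75 with vehicle. The RCC4 FoxO1 array with 4OHT was the lowest of the 12, with a response of -0.82, and the other 3 FoxO responses were -0.09, 0.05 and 0.39. The difference from EV was log2 -0.34 ± 0.28 for FoxO1 (adjusted p = 0.747), 0.33 ± 0.28 for FoxO3 (adjusted p = 0.491) and -0.002 ± 0.24 for both (adjusted p = 0.998). Relative to EV of the same line, FoxO1 gave -0.86 in RCC4 and 0.19 in UMRC2, and FoxO3 gave 0.004 and 0.67. The negative FoxO1 mean thus came from RCC4, and in UMRC2 both isoforms were above EV. FoxO3 minus FoxO1 was 0.67 ± 0.28 (adjusted p = 0.22), with 0.87 in RCC4 and 0.48 in UMRC2.

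GADD45G was dim, between the floor and 6.94, with 1 array at the floor. Its responses were 0.41 and -0.44 with FoxO1 and -0.78 and -0.01 with FoxO3 in RCC4 and UMRC2, against 0.08 and -0.55 in EV cells. With a standard error of 0.73 for FoxO minus EV, a change of the size seen for GADD45B was not detectable at this signal. BTG4, the remaining human member of the BTG family and known for its role in oocytes, was above the array median in 0 arrays and was not tested.

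Counted over the members, 2 of 7 were higher and 0 lower for both isoforms together (BTG1 and GADD45B), where 7.79% of all tested genes were called, 3.09% higher and 4.71% lower. Under FoxO3, 3 of 7 were higher (BTG1, BTG3 and GADD45B) and 0 lower, where 16.6% of all genes were called, 6.59% higher and 10% lower. Under FoxO1, limma called 0 of 7 members, with 2 at an unadjusted p under 0.05, where 0.084% of all genes were called and 1430 had such a p. Between the isoforms 1 of 7 was higher with FoxO3 (BTG1) and 0 lower, where 5.81% of all genes were called, 2.16% higher and 3.65% lower. The median difference over the members was 0.34 for both isoforms, 0.41 for FoxO3 and 0.26 for FoxO1, beside -0.05, -0.07 and -0.02 over all tested genes. By the brightest probe sets, in 4 of 7 members (BTG1, BTG3, TOB1 and GADD45B) the 4 FoxO responses all lay above both EV responses, as they did in 12% of all tested genes. In 0 members did they all lie below, against 15.7%. For BTG3 and GADD45B that separation was lost in each of their other probe sets. For BTG1 and TOB1 it held in the other tested probe set. The comparisons counted here share their EV arrays.

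**Figure D4:**
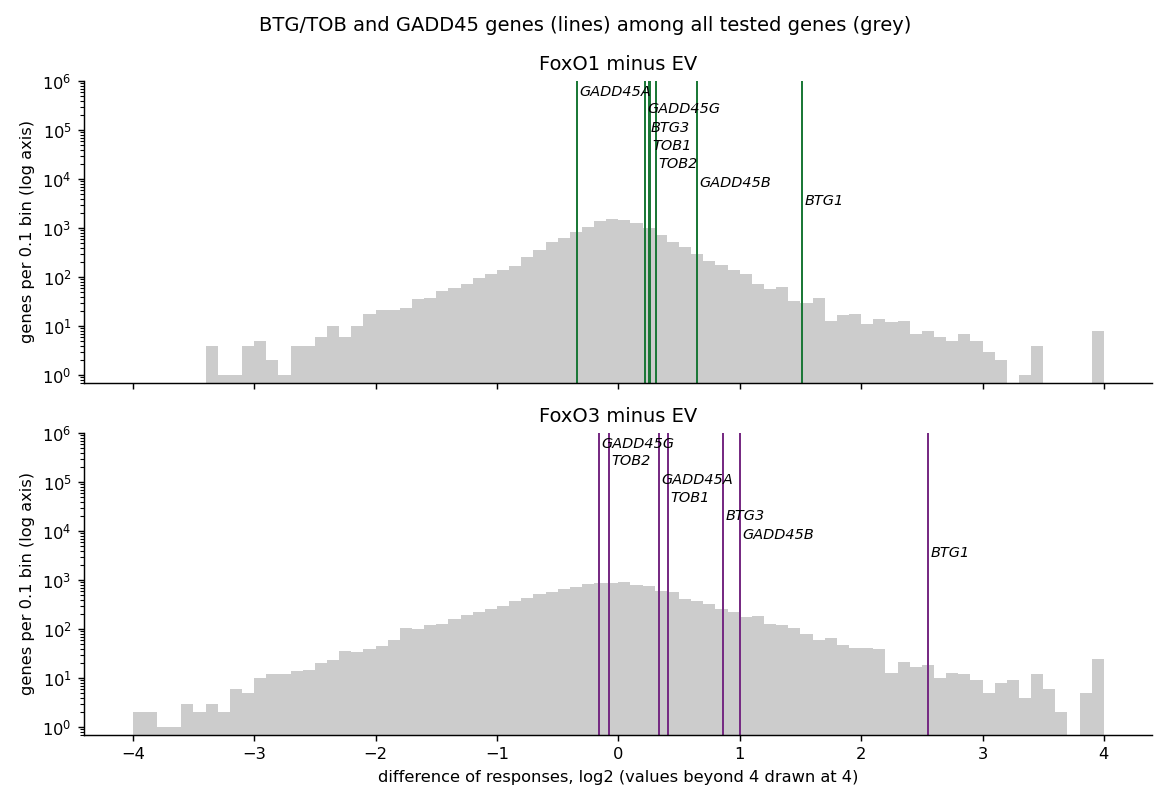
Number of tested genes (log axis) by difference of responses from EV on the log2 scale, for FoxO1 above and FoxO3 below, with the members as coloured lines. BTG1 stood at 1.51 and 2.55, in the upper tail of both, and GADD45A stood at -0.34 and 0.33, within the bulk.

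In EV cells, where 4OHT meets no FoxO fusion, limma called 0 of 7 members and 0 of all genes (0%), with 0 members and 339 genes at an unadjusted p under 0.05. The member means ran from -0.24 for GADD45G to 0.13 for TOB2. Without 4OHT, fusion cells differed from EV cells in 0 of 7 members and 0 of all genes (0%), with 0 members and 1029 genes at an unadjusted p under 0.05. For BTG1 the vehicle levels averaged 11.35 in fusion cells and 11.34 in EV cells, a difference of 0.01 ± 0.08 (adjusted p = 0.975). For GADD45B they averaged 10.68 in fusion cells and 10.67 in EV cells (0.01 ± 0.10).

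The lines differed in most members at baseline. Of the 7, limma called 2 higher and 4 lower in RCC4 than in UMRC2 with vehicle, where 50.3% of all genes were called, 26.6% higher and 23.7% lower. GADD45A averaged 9.33 ± 0.15 in RCC4 and 10.49 ± 0.26 in UMRC2 (SD, n = 3 constructs each), a difference of log2 -1.16 (adjusted p = 0.00101 by limma). GADD45B (10.23 and 11.11, difference -0.88), BTG1 (10.95 and 11.74, -0.79) and BTG3 (10.80 and 11.50, -0.70) were lower in RCC4 too. TOB1, at 10.61 ± 0.07 in RCC4 and 9.68 ± 0.07 in UMRC2, was higher by 0.94 (adjusted p = 9.53e-05), and TOB2 was higher by 0.31 (adjusted p = 0.0142). The TOB2 call was lost without the RCC4 FoxO1 or the UMRC2 FoxO1 array (0.30, adjusted p = 0.0595 in each case). GADD45G gave 1.23 (adjusted p = 0.0676). Line and deposited array level cannot be told apart in these arrays. With the values as deposited the median over all genes was 0.78 and BTG1 gave 0.004, BTG3 0.07 and GADD45B -0.13, all below that median.

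No member passed the test of a difference in FoxO response between the lines. That test takes FoxO1 and FoxO3 as replicates of a line, so its error also holds the difference between the isoforms. The mean FoxO response relative to EV was 2.34 in RCC4 and 1.73 in UMRC2 for BTG1, a difference of 0.61 ± 0.85 (adjusted p = 1), with 0.46 for FoxO1 and 0.76 for FoxO3. For GADD45A it was -0.43 in RCC4 and 0.43 in UMRC2, a difference of -0.86 ± 0.71 (adjusted p = 1), with -1.05 for FoxO1 and -0.66 for FoxO3. TOB2 gave 0.38 for FoxO1 and 0.74 for FoxO3. These differences by isoform have no replicate and no test. Limma called 0 of 7 members and 0 of all genes (0%), with 0 members and 337 genes at an unadjusted p under 0.05.

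The genes through which BTG and TOB proteins act had calls in both directions, as had all tested genes. Of 23 listed genes of the CCR4-NOT and PAN deadenylases, poly(A) binding and PRMT1, 22 were tested, and 1 was higher and 2 lower for both isoforms, where 3.09% of all tested genes were higher and 4.71% lower. Their median was -0.10, beside -0.05 over all genes. CPEB4, which recruits deadenylases or polymerases to selected transcripts, rose by 1.61 ± 0.28 (adjusted p = 0.0177). PRMT5 (-1.02, adjusted p = 0.0153) and PRMT1, the arginine methyltransferase that BTG1 binds (-0.73 ± 0.15, adjusted p = 0.0267), fell. With vehicle PRMT5 was 0.53 ± 0.09 higher in fusion than in EV cells (adjusted p = 0.637 by limma), against 0.01 for PRMT1. The part of that vehicle level in the fall of PRMT5 was not tested. PRMT5 fell further with FoxO3 than with FoxO1 (-0.89, adjusted p = 0.0441). The part of the higher fusion transcript of FoxO3 cells in that difference was not tested. Under FoxO1 alone limma called 0 of the list, where 0.084% of all genes were called. Under FoxO3 4 were higher and 5 lower, where 6.59% of all genes were higher and 10% lower. Their median was -0.05, beside -0.07 over all genes. Among the deadenylase subunits CNOT6 (1.14, adjusted p = 0.00599) and CNOT8 (0.74, adjusted p = 0.0184) rose, while CNOT9 (-0.83, adjusted p = 0.022) and the scaffold gene CNOT1 (-0.59, adjusted p = 0.0246) fell. The PAN subunit gene PAN3 rose by 1.06 (adjusted p = 0.0197), and HOXB9, which BTG proteins can assist as a cofactor, fell by 1.14 (adjusted p = 0.0414). CNOT7, the subunit that binds BTG and TOB proteins alongside CNOT8, gave -0.18 ± 0.11 (adjusted p = 0.319).

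Of 22 listed genes of the stress kinase, cell cycle, repair and demethylation steps in which GADD45 proteins take part, 18 were tested. For both isoforms 1 was higher and 4 lower, where 3.09% of all tested genes were higher and 4.71% lower, and the median was -0.34, beside -0.05 over all genes. MAP3K5, the stress kinase ASK1, rose by 2.90 ± 0.44 (adjusted p = 0.0122). The direct partners PCNA (-1.09, adjusted p = 0.0164), CCNB1 (-0.89, adjusted p = 0.0107) and CDK1 (-0.46 ± 0.11, adjusted p = 0.0472) fell, as did the repair nuclease gene APEX1 (-1.14, adjusted p = 0.00854). These 4 differed between the isoforms. FoxO3 minus FoxO1 was -1.63 for CCNB1 (adjusted p = 0.00738), -1.14 for CDK1 (adjusted p = 0.00882), -1.10 for APEX1 (adjusted p = 0.0224) and -1.01 for PCNA (adjusted p = 0.0398). These values are from the main processing alone. The fusion transcript was 9.03-fold higher in FoxO3 than in FoxO1 vehicle cells of RCC4 and 2.07-fold higher in UMRC2. Its part in these differences was not tested. Under FoxO1 alone limma called 0 of the list, where 0.084% of all genes were called, and CCNB1 gave -0.08 (adjusted p = 0.911), CDK1 0.11 (adjusted p = 0.843) and PCNA -0.59 (adjusted p = 0.425). Over the 4 lines CDK1 ran from -1.05 to 0.19. Under FoxO3, 3 were higher and 4 lower, where 6.59% of all genes were higher and 10% lower, and the median was -0.52, beside -0.07. The higher ones were MAP3K5 (3.07), the JNK gene MAPK8 (1.32, adjusted p = 0.00998) and the repair nuclease gene ERCC5 (0.97, adjusted p = 0.031). MAP3K4, the kinase that GADD45 proteins bind and activate, gave -0.82 ± 0.24 under FoxO3 (adjusted p = 0.0547). CCNB1 (-1.71, adjusted p = 0.00146) and CDK1 (-1.03, adjusted p = 0.00284) were among the 4 lower genes. CDKN1A, the p21 inhibitor and another GADD45 partner, gave 0.28 ± 0.32 (adjusted p = 0.625).

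The genes whose 6 responses were most like those of BTG1 were sought by the root mean square difference, over members whose own root mean square response was at least 0.5. For BTG1 they were FOXP1, a forkhead transcription factor (0.19), KLF5, a zinc finger factor (0.23), and MEGF9 (0.25). FOXP1 responses were 1.81 and 1.12 with FoxO1 and 3.35 and 1.86 with FoxO3 in RCC4 and UMRC2, against 0.002 and 0.03 in EV cells. For GADD45B they were ARHGAP12 (0.09), PFDN4 (0.11) and the splicing regulator gene MBNL2 (0.12). Over 6 pairs among 14280 genes such likeness is a description only.

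BTG1-DT, whose start faces that of BTG1 across the window printed above, was dim. Its probe set was at the floor in 4 arrays and above the array median in 1, and it was not tested. Its responses were 1.75 in RCC4 FoxO1, 0 in UMRC2 FoxO1, 3.01 in RCC4 FoxO3 and 1.91 in UMRC2 FoxO3, against -0.35 and -0.53 in RCC4 and UMRC2 EV cells. In the UMRC2 FoxO3 pair and in the RCC4 EV pair 1 array was at the floor, so those values are bounds, and in UMRC2 FoxO1 both arrays were.

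**Figure D5:**
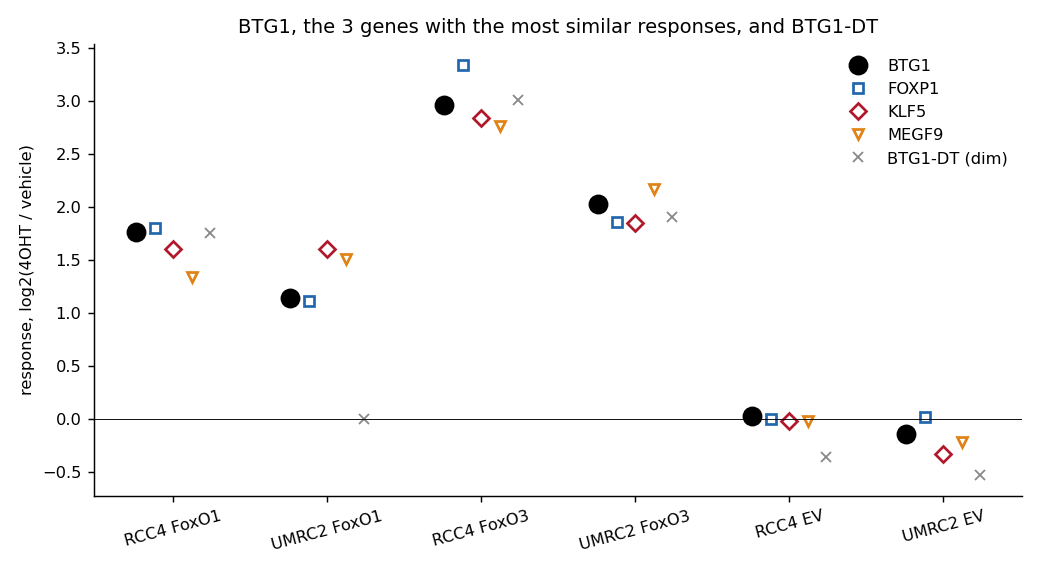
Response to 4OHT (log2 of 4OHT over vehicle) in each of the 6 engineered lines for BTG1, the 3 genes with the smallest root mean square difference from it, and the dim divergent transcript BTG1-DT. FOXP1 had the smallest root mean square difference from BTG1 (0.19), and BTG1-DT stood at 0 in UMRC2 FoxO1, where its arrays were at the floor.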

How the data were processed

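Total RNA was measured on 12 Affymetrix U133 Plus 2.0 arrays, 1 for each line, construct and treatment. The authors deposited linear-scale intensity values, made with MAS5, per the submitters' processing notes; its version and scaling target are not given in the sources used here. The deposited medians differed by up to 1.95-fold, so the log2 values of the 54675 probe sets were quantile-normalised, and those under the 20th percentile (intensity 18.0) were raised to it. Of the probe sets, 41091 had 1 gene symbol, 1801 several and 11721 none, and 62 were controls. Symbols came from the platform annotation through RefSeq gene IDs.

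The 6 responses (4OHT minus vehicle) were fitted with limma 3.58.1 under R 4.3.3. The model held terms for construct and for cell line, with 2 residual degrees of freedom and a prior variance trended with the mean level; the cell line pairs the arrays, as the labels give it. Vehicle levels were fitted in the same way, and the difference between lines with FoxO1 and FoxO3 as replicates of a line. Tests were two-sided, adjusted by Benjamini-Hochberg over the 14280 tested genes, and called at 0.05. A value after ± is the standard error unless called SD. Named genes are the members, up to 4 called genes per direction and partner list, and the 3 genes most similar to each member with a root mean square response of at least 0.5. Where a list had called genes both for both isoforms and for FoxO3 alone, both are named; CNOT1, CNOT7, MAP3K4 and CDKN1A were named beside them as subunits or direct partners, after their values were seen, and BTG1-DT was added for its position. The members and lists were chosen with earlier results of these data known. Alternatives covered scaling, floor, filter, probe set, prior variance, cell line term and each pair left out. The number of arrays limits the precision.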

Additional observations from a re-analysis of the deposited data

Results flagged for a closer look

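BTG1 was singled out because its response differed between the isoforms by a test of the difference itself. FoxO3 exceeded FoxO1 by log2 1.04, with 1.19 in RCC4 and 0.89 in UMRC2, and the fusion transcript was 9.03-fold and 2.07-fold higher in the FoxO3 line than in the FoxO1 line of RCC4 and of UMRC2. The call held in 6 of 15 alternatives, with adjusted p from 0.00859 to 0.958, and the sign in all 15.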

How the results depend on the processing

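Over its 15 alternatives BTG1 kept its sign and ran from 1.73 to 2.34 for both isoforms and from 2.16 to 2.90 for FoxO3, with a call in 13 of 15 in each case. On the deposited scale 1 member was called for both isoforms, 1 for FoxO3 and 0 between the isoforms; the median of all genes then shifted to -0.31, -0.42 and -0.25. With arrays scaled to a common median the counts were 1 for both isoforms and 0 between the isoforms, and with probe sets averaged per gene they were 1 for both, 1 for FoxO3 and 0 between. Without the filter on dim genes, or with a constant prior variance, 0 members were called for both isoforms, for FoxO3 or between the isoforms, and 0 genes in all (3405 and 2731 at an unadjusted p under 0.05 for both isoforms by limma); the cause was not tested. Without the cell line term (no replicate block) 0 members were called between the isoforms, with BTG1 at adjusted p = 0.12. With the 4OHT arrays alone, an alternative chosen after seeing the data, FoxO1 called 1 member, BTG1 (adjusted p = 0.0225). Leaving out each pair gave 1 to 2 members for both isoforms, 0 to 1 for FoxO1, 1 to 3 for FoxO3 and 0 to 1 between the isoforms. Over all genes the calls were 1113 for both isoforms, 12 for FoxO1, 2371 for FoxO3 and 830 between the isoforms. They were 180, 15, 579 and 45 on the deposited scale, 573, 0, 1641 and 365 with averaged probe sets, and with a pair left out they ran from 278 to 1645, 0 to 189, 1275 to 2197 and 32 to 1129. Signs turned for GADD45B in its dimmest probe set (-0.32 for both isoforms and -0.23 for FoxO3). They turned between RCC4 and UMRC2 for BTG1 (0.0038) and BTG3 (0.067) on the deposited scale, and for BTG3 in 1 probe set (0.28). Dim probe sets, among them GADD45G, were limited by signal near the floor, and those under the filter were not fitted.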
